A study of Drosophila melanogaster with 6 samples.

Results

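The genes described here build the insect sense organs: the proneural basic helix-loop-helix (bHLH) genes ac (achaete), sc (scute), ase (asense), ato (atonal), cato (cousin of atonal) and amos, the zinc finger gene sens (senseless), the inhibitor emc (extramacrochaetae), the ubiquitin ligase gene neur (neuralized) and Poxn (pox neuro). These 10 genes were chosen by name. Of them, 7 had a row in the authors' deposited table of 7762 genes, and 3 (ase, cato and amos) had none under their symbols or synonyms, so their expression was not analysed here. RNA came from imaginal discs, the sheets of larval epithelium from which adult appendages grow, taken from the wing and from the haltere, the small balancing organ behind the wing. All samples came from wild-type Canton S Drosophila melanogaster at the wandering L3 larval stage, with 3 haltere disc and 3 wing disc samples, and no transgene or treatment in either group. Whole discs were used, so fewer cells of a type and less RNA per cell cannot be told apart.

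In the disc epithelium, prepattern transcription factors switch on proneural genes in clusters of cells. Proneural proteins pair with the bHLH protein Daughterless to activate neural genes, emc makes an HLH protein without a DNA-binding region that captures both partners, and Notch signalling restricts the proneural state to single cells, the sensory organ precursors. Each precursor then divides asymmetrically into the cells of 1 sense organ. The wing bears mechanosensory and chemosensory bristles along its margin, among other sense organs. The haltere bears dense fields of campaniform sensilla, domed organs that sense strain.

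The deposited values are the authors' edgeR comparison of the tissues, with 1 log2 fold change, mean log2 CPM (read counts scaled by library size), p-value and adjusted p-value (FDR) per gene. The library size behind the CPM includes reads not assigned to a gene. No value per sample and no library total was analysed here, so each statement of error below comes from the authors' p-values, and the spread between the 3 samples of a tissue is unknown. The table does not name the numerator of the fold change. Ubx, the homeotic gene that marks the haltere disc, stood at -5.22 in the authors' deposited table, so positive values are read as higher in the wing disc. The members were chosen with results of this contrast known, so their fold changes and the authors' p-values are given as a description of these libraries.

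Poxn, a regulator of sense organ identity, was the member called as different. The authors' deposited table gave it a log2 fold change of 3.34, which is 10.1-fold more RNA in the wing disc, with an FDR of 3.23e-05 (edgeR). The other 6 members lay between -0.60 and -0.06 on the same log2 scale in the authors' deposited table, all on the haltere side of 0, and all had an FDR of 1 (edgeR). At an FDR under 0.05, 1 of the 7 members was called, in a table where 1.34% of genes were called in either direction, 0.464% as higher in the wing disc and 0.876% as higher in the haltere disc. The same member was the 1 of 7 with an unadjusted p-value under 0.05, against 4.32% of all genes. These shares are printed as background only, since the members were chosen with the calls known. The median log2 fold change of the 7 members was -0.21, against 0.00047 for all genes of the authors' deposited table.

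**Figure D1:**
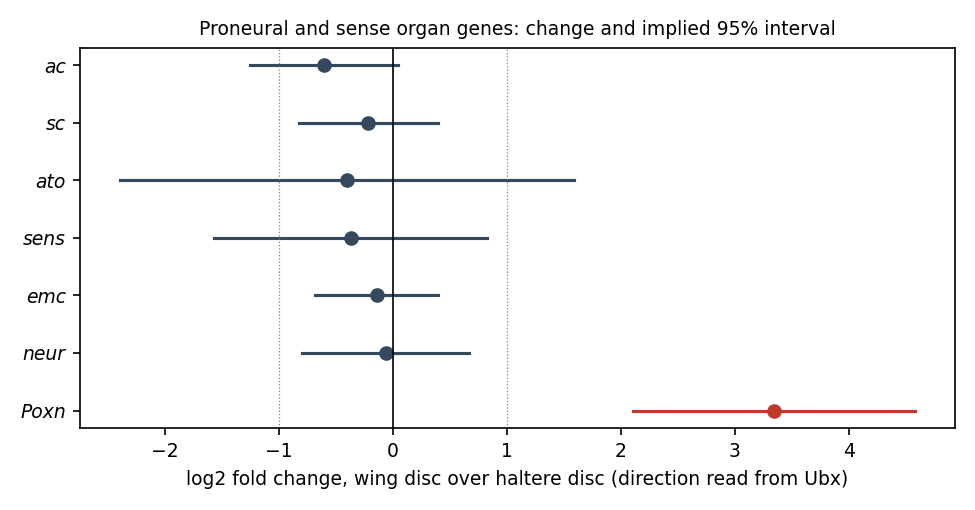
Log2 fold change of each member (point) with the approximate 95% interval implied by the authors' p-value (line), for 3 wing disc against 3 haltere disc samples. Dotted lines mark a 2-fold difference in either direction. Poxn, at 3.34, lies to the right of all the others, whose intervals all include 0.

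A rough error for each fold change was obtained by dividing its size by the normal quantile of the authors' p-value, and an approximate 95% interval by extending it 1.96 times this error on both sides. For Poxn the error implied by the authors' deposited table was 0.63 and the interval ran from 2.10 to 4.58, that is from 4.30-fold to 23.9-fold. The intervals of the other 6 members all included 0. In 3 of them, sc, emc and neur, the interval lay wholly inside a 2-fold difference either way. The intervals of ac, ato and sens reached beyond it.

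Poxn encodes a paired-domain transcription factor of the Pax family, known for giving external sense organs their chemosensory identity and for a role in forming the wing hinge. It lies on chromosome 2R from 15826693 to 15835055, minus strand (coordinates of build dm6, Ensembl annotation), with up to 5 exons and 2458 exonic bases. Its p-value was number 30 in the authors' deposited table when all 7762 genes were ordered from the smallest, and by size of change it ranked 4 among the 36 genes called higher in the wing disc. Its mean expression in the authors' deposited table was low, at 0.99 log2 CPM. Taking the mean and the fold change together, the authors' deposited table implies 3.62 CPM in the wing disc and 0.357 CPM in the haltere disc. At so low a level the fold change also depends on the prior count that edgeR adds, whose size is not given in the sources used here.

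Among the 672 other genes within 0.5 log2 CPM of Poxn in the authors' deposited table, 6 were called (0.893%), and the smallest change called was 2.16. The change of Poxn exceeded that of 99.9% of these genes. Poxn was chosen with this change known, and its mean level comes mostly from the wing disc, so the rank is a description only. The error implied for Poxn, 0.63, was close to the median of 0.62 for genes at this level in the authors' deposited table. Poxn lies inside the much longer gene tun, which runs on the opposite strand from 15794000 to 15855645. None of the exonic bases of Poxn is also exonic in tun, and tun stood at -0.19 with a p-value of 0.523 in the authors' deposited table (edgeR). The other neighbours with a row were Zasp52 at -0.14 and CG33465 at -0.10 on one side, and CG8249 at 0.19 and Gpo1 at 0.08 on the other, as log2 fold changes in the authors' deposited table. All of them had an FDR of 1 (edgeR), so Poxn was the one gene called at this locus.

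**Figure D2:**
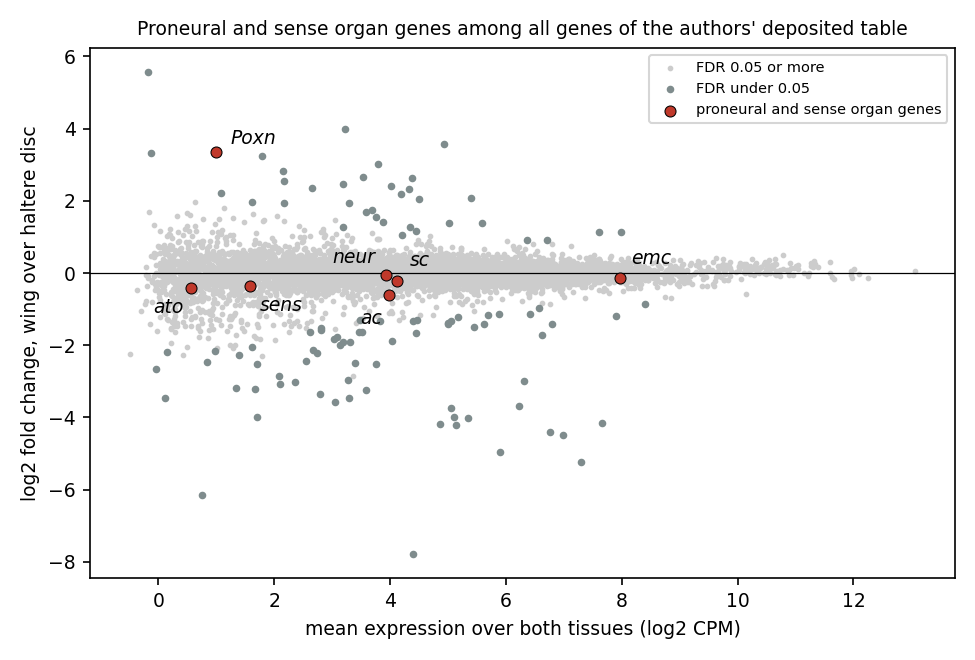
Log2 fold change (wing over haltere disc) against mean expression in log2 CPM, 1 point per gene for all 7762 genes; darker grey marks an FDR under 0.05 and red marks the 7 members. Poxn stands at 3.34 at the low end of expression, and the other members lie within the band of genes that were not called.

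The proneural genes with a row were ac, sc and ato. The genes ac and sc drive the formation of bristles and other external sense organs, and ato drives chordotonal (stretch-sensing) organs and photoreceptors. The authors' deposited table put ac at a log2 fold change of -0.60, with an unadjusted p-value of 0.0674 (edgeR). The implied levels were 19.1 CPM in the haltere disc and 12.6 CPM in the wing disc, from the authors' deposited table, a 1.52-fold difference with an interval on the log2 scale from -1.25 to 0.04. This was the smallest p-value among the members other than Poxn. At its level of expression the smallest change called in the authors' deposited table was 1.06, so a difference of the size seen for ac was below what these libraries called.

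In the authors' deposited table sc stood at -0.21 with p = 0.490 (edgeR), from implied levels of 18.7 CPM in the haltere disc and 16.1 CPM in the wing disc. The log2 interval of sc ran from -0.82 to 0.40. The ato transcript was scarce, with implied levels of 1.68 CPM in the haltere disc and 1.27 CPM in the wing disc. The authors' deposited table gave ato -0.40 on the log2 scale, with p = 0.690 (edgeR). The interval for ato, from -2.39 to 1.58, admits more than a 2-fold difference in either direction. Among genes at the level of ato in the authors' deposited table, no change under 2.16 in size was called.

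The genes ac, sc and ase belong to the achaete-scute complex on the X chromosome, where ac runs from 370031 to 370947 and sc from 396060 to 397497, both on the plus strand, with 25.1 kb between them. The annotation places ase 63.2 kb beyond sc, from 460747 to 463176. All 3 lie inside the span of CG32816, a gene of the opposite strand that shares none of their exonic bases. The fourth proneural gene of the complex, l(1)sc, had no row in the authors' deposited table, nor had the pigment gene y on its left. On the right the nearest genes with a row were Cyp4g1, a cytochrome P450 gene, at -1.19 with a p-value of 0.239, and ebo at -0.21 with a p-value of 0.429, as log2 fold changes in the authors' deposited table (edgeR). The 3 proneural genes with a row share a feature that was not used to choose them: ac, sc and ato are each annotated with a single exon, as are 7.99% of the 6249 protein-coding genes of the table matched by symbol. The annotation also gives a single exon to ase, cato and amos, which are outside that share. Outside the complex, ato lies on chromosome 3R from 8278052 to 8279274, plus strand.

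The zinc finger protein encoded by sens acts in the precursor cell, where it reinforces proneural activity. It lies on chromosome 3L from 13396228 to 13401125, minus strand, with 4 exons. The authors' deposited table listed sens at -0.37 on the log2 scale with p = 0.543 (edgeR), from implied levels of 3.37 CPM in the haltere disc and 2.61 CPM in the wing disc. The interval for sens, from -1.57 to 0.82, is wide. Among genes at its level, the authors' deposited table called no change under 1.98 in size.

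The member with the highest level was emc, on chromosome 3L from 749400 to 753492, plus strand, with 2 exons. Its implied levels were 264 CPM in the haltere disc and 239 CPM in the wing disc, from the authors' deposited table. The authors' deposited table listed emc at -0.14 on the log2 scale with p = 0.604 (edgeR) and an interval from -0.68 to 0.40. The gene lies inside the span of hng3 on the opposite strand, with no exonic base in common, and hng3 stood at -0.17 in the authors' deposited table. The partner that emc captures, da (daughterless), stood at -0.19 with a p-value of 0.482 in the authors' deposited table (edgeR). Per kilobase of exon, emc was expressed 4.82-fold above da as a mean over both tissues of the authors' deposited table. Both genes thus lay slightly on the haltere side of 0, by similar amounts and within their errors.

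The neur gene makes the ubiquitin ligase that activates the Notch ligand Delta in the precursor cell. It lies on chromosome 3R from 9020348 to 9039471, minus strand. It showed the smallest change of the 7 members, -0.06 with a p-value of 0.864 in the authors' deposited table (edgeR), from implied levels of 15.7 CPM in the haltere disc and 15.0 CPM in the wing disc. The interval for neur ran from -0.80 to 0.67. Of its 4309 exonic bases, 1673 are also exonic in asRNA:CR31429, an antisense transcript without a row of its own, and the strand setting of the authors' counting is not given in the sources used here, so reads from this stretch cannot be told apart.

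Levels of different genes were set side by side only per kilobase of exon. From high to low, the mean levels derived from the authors' deposited table were 6.94 log2 CPM per kb for emc, 4.11 for ac, 3.60 for sc, 1.83 for neur, 0.29 for sens, 0.27 for ato and -0.31 for Poxn. The inhibitor emc thus stood highest, the proneural genes ac and sc next, and the precursor gene sens, ato and Poxn lowest. Neighbours in this order such as sens and ato cannot be ranked, since no spread over samples is known. In the haltere disc the level of Poxn implied by the authors' deposited table was the lowest of the 7, at 0.145 CPM per kb. That value is near the floor and depends on the prior count of edgeR. In the wing disc the authors' deposited table implied 1.47 CPM per kb for Poxn, beside 1.06 for sens and 1.04 for ato. These 3 wing disc levels cannot be ranked either.

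**Figure D3:**
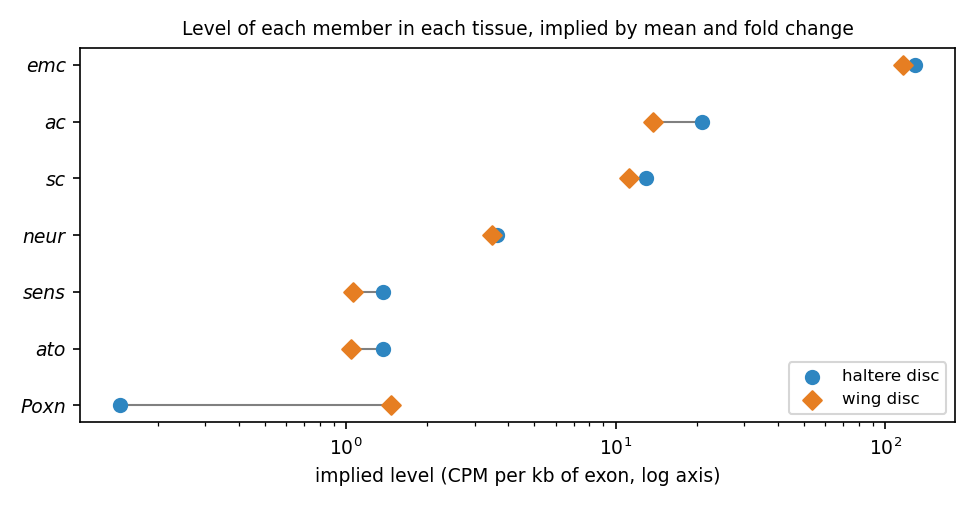
Implied level of each member in CPM per kb of exon (log axis) in the haltere disc (circles) and the wing disc (diamonds), each computed from the authors' mean and fold change without error bars. Poxn lies at 0.145 in the haltere disc and at 1.47 in the wing disc, near sens and ato there, while the pairs of the other 6 members lie close together.

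The genes that act around the members were examined as 8 lists covering prepattern, proneural partners, the Enhancer of split and Bearded families, lateral inhibition, precursor fate, asymmetric division, chordotonal organs and cilia, and bristle structure. Of 128 genes named in them, 100 were matched by name to a row in the authors' deposited table. The precursor fate genes BarH1 and BarH2 were not matched and are outside the counts below. They stand there as B-H1 at 0.15 and B-H2 at -0.51, and neither was called. At an FDR under 0.05 (edgeR), 2 of these 100 were called, 1 in each direction, against 1.34% of all genes. An unadjusted p-value under 0.05 was reached by 10 of the 100 in the authors' deposited table (edgeR), against 4.32% of all genes. In all, 68 of the 100 lay on the haltere side of 0, against 49.9% of all genes, and their median log2 fold change was -0.10 in the authors' deposited table.

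Both calls fell in the list of the Enhancer of split and Bearded families, where 14 of 16 genes had a row and 5 of the 14 had an unadjusted p-value under 0.05 in the authors' deposited table (edgeR). The Bearded genes encode small proteins, several of which bind and inhibit Neuralized. E(spl)m6-BFM stood at 2.18 in the authors' deposited table, 4.53-fold higher in the wing disc, with an FDR of 6.86e-10 (edgeR). Ocho stood at -1.34, 2.53-fold higher in the haltere disc, with an FDR of 0.00992 (edgeR) from the authors' deposited table. The called members of the family thus had opposite directions, while neur itself stood at -0.06. Which cells of the whole disc carry these differences was not tested. E(spl)m4-BFM at -1.38 and Brd at -1.13 had the sign of Ocho, and the authors' deposited table gave them an FDR of 0.184 and of 0.654 (edgeR). Tom was at -0.23 in the authors' deposited table. The bHLH repressors of the complex ran from -1.05 for E(spl)mgamma-HLH, whose FDR was 0.643, to 0.10 for E(spl)mbeta-HLH in the authors' deposited table (edgeR).

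Of the 15 prepattern genes 0 had an FDR under 0.05 by the authors' deposited table, and 3 had an unadjusted p-value under 0.05 (edgeR), a share to read beside the 4.32% of all genes. Among the activators of ac and sc, pnr, the GATA factor of the dorsal notum, stood at -0.0023, ara at 0.12 and caup at -0.04 as log2 fold changes in the authors' deposited table. The smallest p-values of the list belonged to Bx (Beadex, a LIM-only factor) at 0.95 with p = 0.0131 and to tup (a LIM-homeodomain factor) at -0.64 with p = 0.0193, and the authors' deposited table gave them an FDR of 0.495 and of 0.639 (edgeR). Of the proneural partners and relatives, da and net had rows, and net, a bHLH gene of wing vein patterning, stood at 1.05 (FDR 0.235, edgeR) in the authors' deposited table. The other 7 named relatives, among them l(1)sc and tap, had no row.

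The lateral inhibition list had no call in the authors' deposited table, and 0 of its 18 genes had an unadjusted p-value under 0.05 (edgeR). The receptor gene N stood at -0.31, its ligand gene Dl at 0.17 and sca, a secreted factor of precursor spacing, at -0.09 in the authors' deposited table. The smallest p-values there were 0.134 for fng at 0.36 and 0.302 for mam at -0.37 (edgeR). Among the genes of precursor fate, 15 of 22 were matched to a row, without BarH1 and BarH2. Of the matched genes 0 were called in the authors' deposited table, with 1 unadjusted p-value under 0.05 (edgeR). That gene was cpo (couch potato), an RNA-binding protein gene of sense organ cells, at -1.33 (FDR 0.228, edgeR) in the authors' deposited table. Next came sv (shaven), the Pax gene of bristle shaft cells, at -1.12 with p = 0.0627 and a mean of 0.12 log2 CPM in the authors' deposited table (edgeR). The external sense organ selector ct (cut) stood at -0.03 and phyl (phyllopod), a direct target of the proneural proteins, at -0.79 with p = 0.187 in the authors' deposited table (edgeR).

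In the asymmetric division list all 19 genes had a row, 0 were called and 0 had an unadjusted p-value under 0.05 in the authors' deposited table (edgeR). The fate determinant gene numb stood at -0.03, and the smallest p-values were 0.0595 for mira at -1.05 and 0.319 for pon at -0.31 in the authors' deposited table (edgeR). Of the chordotonal and cilium genes 10 of 19 had a row, and they ran only from -0.32 to 0.23 in the authors' deposited table, with 0 calls and 0 unadjusted p-values under 0.05 (edgeR). Their smallest p-values were 0.265 for Oseg1 at -0.32 and 0.455 for Rfx, a regulator of ciliary genes, at -0.28 in the authors' deposited table (edgeR). The bristle structure genes had 7 of 10 rows, 0 calls and 0 unadjusted p-values under 0.05 in the authors' deposited table (edgeR). Within that list f (forked), an actin bundling gene, stood at 1.02 with p = 0.0904 and kkv, a chitin synthase gene, at -0.18 with p = 0.565 in the authors' deposited table (edgeR).

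**Figure D4:**
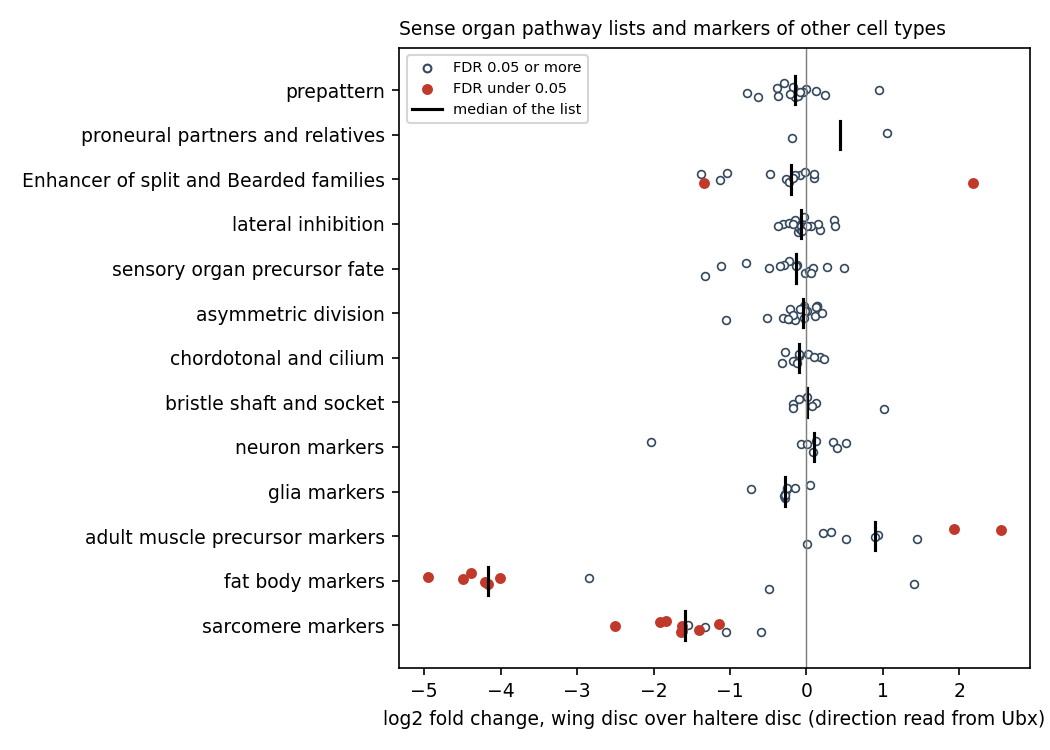
Log2 fold change of each listed gene matched to a row (points, filled where the FDR was under 0.05) and the median of each list (bar), wing over haltere disc. The 8 sense organ lists at the top hold 2 filled points, E(spl)m6-BFM at 2.18 and Ocho at -1.34, whereas the fat body and sarcomere markers at the bottom lie mostly left of 0.

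Markers of other cell types were listed beside the members. Of the neuron markers 8 of 15 had a row and 0 were called in the authors' deposited table. The synaptic genes nSyb, brp and Snap25 were among those without a row. For the 8 the implied summed level was 205 CPM in the haltere disc and 218 CPM in the wing disc, of which Csp alone made up 125 and 136 CPM, so the sum says little of the scarcer markers. The pan-neuronal gene elav stood at 0.08, while Syt1, a synaptic vesicle gene, stood at -2.04 with p = 0.00307 (FDR 0.169), and cac at 0.51 with p = 0.511 in the authors' deposited table (edgeR). Of the glia markers 9 of 11 had a row and 0 were called, with a median of -0.28, a smallest p-value of 0.231 for loco at -0.30, and 0.332 for Gli at -0.26 in the authors' deposited table (edgeR). Their implied summed levels were 500 CPM in the haltere disc and 452 CPM in the wing disc.

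All 13 disc epithelium markers had a row. Ubx and Antp, the latter at 2.08, were the 2 called in the authors' deposited table, against 1.34% of all genes. An unadjusted p-value under 0.05 was reached by 6 of the 13 (edgeR), against 4.32% of all genes. Besides Ubx and Antp these were nub at 0.81, vg at 0.82, wg at -0.57 and ptc at -0.67. Markers of other tissues moved with the contrast. Of the 9 adult muscle precursor markers 2, Him at 2.55 and twi at 1.93, were called higher in the wing disc by the authors' deposited table, at an FDR of 0.000119 and of 0.00501 (edgeR). All 9 were positive, with a median log2 fold change of 0.89, and 5 had an unadjusted p-value under 0.05 by the authors' deposited table (edgeR). These 5 included htl at 1.44, stumps at 0.94 and kon at 0.89 in the authors' deposited table. The summed implied levels of the list were 394 CPM in the wing disc and 318 CPM in the haltere disc, of which Ama and Cp1, with log2 fold changes of 0.32 and 0.00023 by the authors' deposited table, made up 147 and 137 CPM in the wing disc. On the haltere side, 6 of 9 fat body markers and 8 of 12 sarcomere markers with a row were called in the authors' deposited table. The called fat body genes Lsp1alpha, Lsp1beta, Lsp1gamma, Lsp2, Fbp1 and apolpp ran from -4.95 for Lsp1gamma to -4.01 for apolpp in the authors' deposited table. The called sarcomere genes TpnC73F, bt, Mlc1, up, Tm2, wupA, Act57B and Mlc2 ran from -2.51 for TpnC73F to -1.14 for Mlc2 in the authors' deposited table. The summed implied levels of the fat body list were 1131 CPM in the haltere disc and 72.6 CPM in the wing disc, and those of the sarcomere list 351 and 145 CPM. Not every fat body marker had that sign, since the authors' deposited table put Apoltp at 1.41 with p = 0.0141 (FDR 0.515, edgeR). All 9 muscle precursor markers thus had the sign of Poxn, though Cp1 lay at 0.00023. Of 8 neuron markers with a row 6 had it too, among them Rbp9 at 0.0024. Syt1, the 1 neuron marker with an unadjusted p-value under 0.05 (edgeR), stood at -2.04. Over all genes, 49.9% lay on the haltere side of 0. The sign of the other members was shared by 8 of 9 fat body and all 12 sarcomere markers with a row. It was also that of 8 of 9 glia markers, 8 of 13 disc epithelium markers and 68 of the 100 matched genes in the 8 lists. The intervals of those 6 members all included 0, so their own signs are uncertain. The part of these cell types in the values of the members was not tested.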

How the data were processed

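Per the labels' protocols, RNA was enriched for mRNA and made into directional libraries, and the submitters' processing notes name HISAT2, HTSeq, edgeR and build dm6. The authors' deposited table gives a log2 fold change, a mean log2 CPM, a p-value and an FDR per gene, per the file headers. How the authors' edgeR run filtered low counts, which model it used and which annotation was counted are not given in the sources used here. Besides 7762 genes the table holds 5 summary lines of the read counter with 43.3% of the summed CPM. These lines were left out of all counts. The deposited FDR matched a Benjamini-Hochberg adjustment over all rows to within 6.24e-06.

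The members and lists were chosen with earlier results of these data known. Names were matched by symbol or by a RefSeq synonym that belongs to a single gene. A gene listed under another name, as BarH1 and BarH2 were, is missed by this matching. Named are every member with a row, in each list the genes with an FDR under 0.05 and those with the 2 smallest p-values, the neighbours of Poxn and of the achaete-scute complex, and Ubx; other genes were chosen after their values were seen. Tissue levels were computed from the mean CPM and the fold change. Errors were derived from fold change and p-value through the normal quantile, which is approximate because the authors' edgeR fold changes are shrunken. Genes at the level of a member are those within 0.5 log2 CPM. Exon lengths (all annotated exons, overlaps counted once) and coordinates came from Ensembl release 115 (BDGP 6.54, dm6 coordinates). Adjustment and derived error were tested on simulated data. Unmapped columns with values of single samples numbered 0. The depth is unknown, so no SD is given. No sequence is printed. Computations used Python 3.11.15, numpy 2.4.6, scipy 1.17.1 and pandas 2.3.3, and figures matplotlib 3.10.9.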

Additional observations from a re-analysis of the deposited data

How the results depend on the processing

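Poxn remained the called member at an FDR under 0.01 or 0.1 and with a minimum log2 change of 1. Its deposited FDR and fold change fixed these outcomes in advance, so they do not test its call. It was also called under a Bonferroni adjustment, without the summary lines, and with a minimum mean expression of 0 log2 CPM. Its deposited p-value and rank all but fixed these outcomes too, so they do not test its call either. The minimum of 0 log2 CPM was added after the data were seen. Over these settings the adjusted p-value of Poxn ran from 3.23e-05 to 0.000971 (edgeR). With a minimum of 1 log2 CPM 0 members were called, because Poxn, at 0.99, was itself removed, along with ato, and 5 members were left among 7134 genes. The count of called genes in the 8 lists went from 2 to 1 under the Bonferroni adjustment, which kept E(spl)m6-BFM and not Ocho, and was 2 under the other alternatives. Per kilobase of coding sequence, in place of exon, the levels were 8.72 log2 CPM per kb for emc, 4.72 for ac, 4.07 for sc, 2.74 for neur, 0.88 for sens, 0.66 for ato and 0.64 for Poxn, the same order. None of these alternatives can alter a fold change, which is fixed as deposited. No paired analysis was possible because single samples have no column in the file. For the same reason leaving out a replicate was not run, and whether 1 library drives the call of Poxn is not known.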

Other observations

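The families to which the members belong were listed after the values had been seen. Of 10 genes with a paired box, 5 had a row in the authors' deposited table. Poxn was the one called (edgeR), against 1.34% of all genes. The others stood at -0.47 for eyg, a selector of the notum, -0.11 for toe, 0.01 for toy and -1.12 for sv in the authors' deposited table, with unadjusted p-values of 0.107, 0.731, 1 and 0.0627 (edgeR). Of 58 bHLH gene names listed, 35 were matched to a row and 1 was called in the authors' deposited table (edgeR), against 1.34% of all genes. That gene was twi, the mesodermal gene of the muscle precursors, at 1.93. The 35 include members and genes of the lists above, so they are no separate set. The tracheal gene trh stood at 1.03 with an FDR of 0.0859, and the growth regulator Myc, listed as dm, at 0.40 with p = 0.222 in the authors' deposited table (edgeR). The 35 genes had a median log2 fold change of -0.14, with 22 on the haltere side of 0, against 49.9% of all genes.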
